A study of Homo sapiens with 8 samples.

Results

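The RNA of *DAXX* knockdown cells (KD) was compared with that of cells carrying a scrambled shRNA (control), gene by gene, in MDA-MB-231 cells, an established line from a triple-negative breast tumour. Genes with an FPKM (fragments scaled by transcript length and by mapped depth) of 1 or more in at least 2 of the 8 libraries were included, 10465 of the 36991 genes listed. The KD line carries a lentiviral shRNA against the coding sequence of *DAXX*, and the control line carries a scrambled shRNA. The other lines of the series carry a lentiviral *DAXX* cDNA under a CMV promoter, either wild type (WT OE) or with I7K and I733K, which disable both SUMO-interacting motifs (DSM OE). All lines were made with puromycin selection and were grown in complete DMEM. Each line was sequenced as 2 libraries. 1 shRNA and 1 derived line stand for each of KD and control, so effects of the knockdown and of the history of a line cannot be told apart.

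DAXX is a nuclear protein that deposits the histone variant H3.3 together with ATRX, and it is also known as a regulator of transcription factors, NF-kB among them. It binds SUMO, a small protein that is attached to many transcriptional regulators and to the protein of PML bodies. MDA-MB-231 is a mesenchymal, estrogen receptor-negative line. It is known for secreting chemokines, interleukins and matrix proteases, whose genes are classical targets of NF-kB and AP-1.

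A model of the 4 line means was fitted with limma to log2(FPKM + 1) of all 8 libraries, and a gene is called here when its p-value, adjusted over all 10465 genes, is under 0.05. Fold changes are differences on that log2 scale and understate the change of genes with low FPKM. P-values measure only the spread between duplicate cultures, pooled over the 4 lines. They do not measure the spread between separately derived lines. The methods give a nominal sequencing depth, the same for every sample, but mapped reads per library were not used here, so the realised depth of each library is unknown. FPKM summed to between 162318 and 166886 per library. The defining genes of the line were present in every library, with *AXL* at 99.2 to 130 and *MSN* at 150 to 154 in control and KD. The markers *ESR1* and *PGR* were listed at 0, as were *CDX2*, *KLK3*, *CD3E* and *VWF*. Marker lists of other cell types were not low throughout. Only 4 of 8 luminal breast markers, 4 of 6 prostate markers and 5 of 7 fibroblast markers stayed below 1 across control and KD. For colon the count was 6 of 7, and for endothelial cells 4 of 5. The luminal list added up to an FPKM of 215 or 230 per control library, against 97.8 or 85.0 per KD library. Of 8 immune cell markers, 7 stayed under 1 in these 4 libraries, while *CD14* stood at 1.53 and 1.24 in control and 5.05 and 4.76 in KD.

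Single libraries held values that their duplicate did not share. Among tested genes, 558 differed by over 1 on the log2 scale between the control duplicates and 502 between the KD duplicates, while the median difference was 0.16 and 0.14. *RHOA*, a small GTPase gene, was listed at 0.594 and 94.1 in the KD libraries. *CCT7*, a chaperonin subunit gene, was listed at 0.420 and 55.1 in KD, and *VIM*, the vimentin gene, at 39.1 and 970. In control, *BSG* was listed at 106 and 2.92, *ANXA6* at 65.3 and 0.608, and *DENR* at 39.9 and 0.534. Most cells express these genes, none of the 6 passed the test, and whether such values are failed estimates was not tested. In bulk RNA, fewer cells expressing a gene and less RNA per cell cannot be told apart.

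*DAXX* mRNA was lower in both KD libraries, at an FPKM of 8.60 and 7.30, than in both control libraries, at 25.3 and 37.4. The difference on the log2 scale was -1.83 (standard error 0.34, adjusted p = 0.0364). That call was lost when any control, KD or DSM OE library was left out, with fold changes between -2.10 and -1.56, and the KD and control libraries did not overlap. In the overexpression lines, where the introduced cDNA may be counted too, its mean was 221 (WT OE) and 79.2 (DSM OE), with n = 2 each.

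Between KD and control, 367 genes were higher and 386 lower in KD, which is 7.2% of the tested genes (3.51% higher and 3.69% lower). Past 2 on the log2 scale rises outnumbered falls, though a fall is bounded by the control level. Past 1 there were 132 rises and 145 falls. Of the genes called higher, 41 changed by over 2 on the log2 scale and 15 by over 3, against 24 and 6 of those called lower. The median change was 0.83 among higher calls, -0.89 among lower calls and 0.03 over all tested genes. At an unadjusted p under 0.05 there were 1267 higher and 1170 lower genes. Without overlap of their duplicates, KD stood above control in 3284 tested genes and below it in 2736, so most genes met that criterion and it says little with 2 libraries a line. Leaving out KD replicate 1 gave 94 higher and 133 lower genes, and leaving out KD replicate 2 gave 120 and 163. With control replicate 1 left out there were 180 and 112, and with control replicate 2 left out 155 and 104. Of the 753 called genes, 153 were called with each of the 8 libraries left out in turn, and no called gene changed its sign under any alternative.

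**Figure D1:**
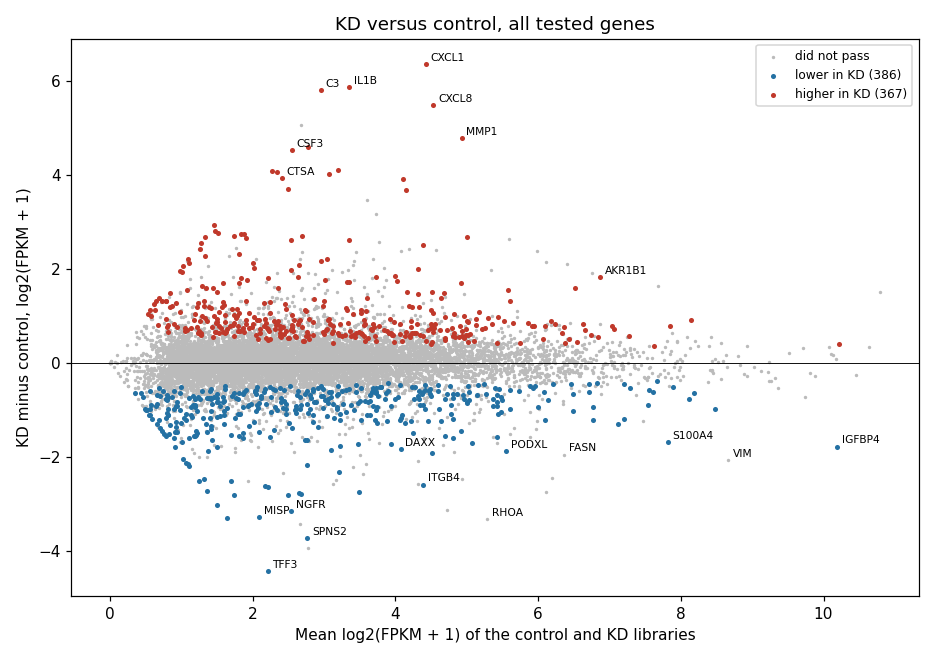
Change from control to KD (vertical axis, log2 of FPKM + 1) against mean level (horizontal axis, mean log2 of FPKM + 1 over the control and KD libraries) for the 10465 tested genes, each a point, coloured where it passed the test. *CXCL1* stands at the top with 6.36 and *TFF3* is the lowest called gene at -4.42, while *VIM*, *FASN* and *RHOA*, whose KD duplicates differ widely, lie low without passing.

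KD libraries were also set against the mean of WT OE and DSM OE, the lines that carry more *DAXX*. A gene can pass against that mean while its KD level lies near that of WT OE or of DSM OE. In that comparison 950 genes were higher (9.08%) and 969 lower (9.26%) in KD, 18.3% in all. It draws on 4 libraries in place of 2 on the other side and shares the KD libraries with the first, so the counts of both are given side by side only.

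The 15 largest rises in KD included the chemokine genes *CXCL1*, *CXCL8* and *CCL2*, the cytokine genes *IL1B*, *CSF2* and *CSF3*, and *C3*, *MMP1* and *SAA1*. *CXCL1*, a chemokine that attracts neutrophils, went from an FPKM of 1.07 and 1.74 in control to 191 and 199 in KD. *C3*, the central protein of complement, went from 0.0468 and 0.0217 to 55.6 and 58.9, and its mean in WT OE and DSM OE was 0.0295 and 0.0226. The KD libraries thus held the only substantial level of *C3* in the series. *SAA1*, an acute-phase protein gene, went from 0.623 and 0.204 to 33.4 and 32.1 (log2 fold change 4.59, standard error 0.26, adjusted p = 7.13e-04). *SAA1* has a near-identical neighbour, *SAA2*, and the sources used here do not give how reads were shared between them.

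The other rises among these 15 were of several kinds. *ICAM1*, an adhesion molecule for leukocytes, went from 3.23 and 3.61 to 49.9 and 86.4. *C15orf48*, which encodes a mitochondrial protein, went from 0.256 and 0.235 to 18.9 and 20.5, and *PAGE5*, a cancer-testis antigen gene, from 1.32 and 1.12 to 35.5 and 38.9. *TMEM47*, a membrane protein gene, was listed at 0 in both control libraries and at 6.47 and 6.80 in KD. *CTSA*, the cathepsin A gene, and *RAN*, a nuclear transport GTPase gene, had another pattern. *CTSA* had 0.351 and 0.360 in the control libraries against 22.1 and 17.6 in the KD libraries, and its overexpression means were 20.8 (WT OE) and 20.02 (DSM OE), so control stood apart from the other 3 lines. *RAN* was listed at 3.29 and 4.79 in control and 55.5 and 70.7 in KD, with means of 36.2 and 49.8 in WT OE and DSM OE. Whether the low control values of *CTSA* and *RAN* are failed estimates was not tested. Leaving out any control, KD or DSM OE library ended the *RAN* call (3.46 to 3.89).

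The largest falls included the trefoil factors, a cell surface receptor and a lipid transporter. *TFF3*, *TFF2* and *TFF1*, small secreted peptides of mucous epithelia whose genes neighbour each other on chromosome 21 of GRCh38.p14 (42311667 to 42366535), were listed at 20.6 and 20.3, 8.29 and 9.40, and 7.03 and 7.16 in the control libraries. All 3 were listed at 0 in both KD libraries, and in WT OE and DSM OE as well. *NGFR*, the p75 neurotrophin receptor gene, went from 16.4 and 16.3 in control to 0.930 and 0.957 in KD, and stood at 14.4 and 17.0 in WT OE and DSM OE (means). *NGFR* in KD was below both sides, by -3.16 from control and -3.09 from the mean of the overexpression lines (standard error 0.15 and adjusted p = 3.87e-04 for the first, adjusted p = 2.47e-04 for the second). *SPNS2*, the exporter of sphingosine-1-phosphate, went from 23.2 and 24.5 to 0.985 and 0.768. *ENPP1*, which encodes an ectoenzyme that hydrolyses extracellular nucleotides and cGAMP, went from 31.9 and 24.7 to 2.75 and 4.01.

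Some of these genes were low in other lines too. The overexpression means of *SPNS2* were 1.03 (WT OE) and 3.53 (DSM OE). *EEF1A2*, an elongation factor isoform gene, had 9.31 and 12.0 in control, 0.873 and 0.853 in KD, and means of 0.768 and 1.90 in the overexpression lines. *GALNT1*, which starts O-glycosylation, went from 15.6 and 12.5 to 1.31 and 0.953 beside means of 20.1 (WT OE) and 1.41 (DSM OE), and leaving out any control, KD or WT OE library ended its call (-2.96 to -2.67). *VAT1L*, in contrast, was at 0 in KD alone. Its control libraries held 5.43 and 5.90 and its overexpression means were 6.74 and 9.10. *SPANXD*, a cancer-testis gene with near-identical copies among which reads may be split, went from 8.05 and 7.68 to 0.207 and 0.322.

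**Figure D2:**
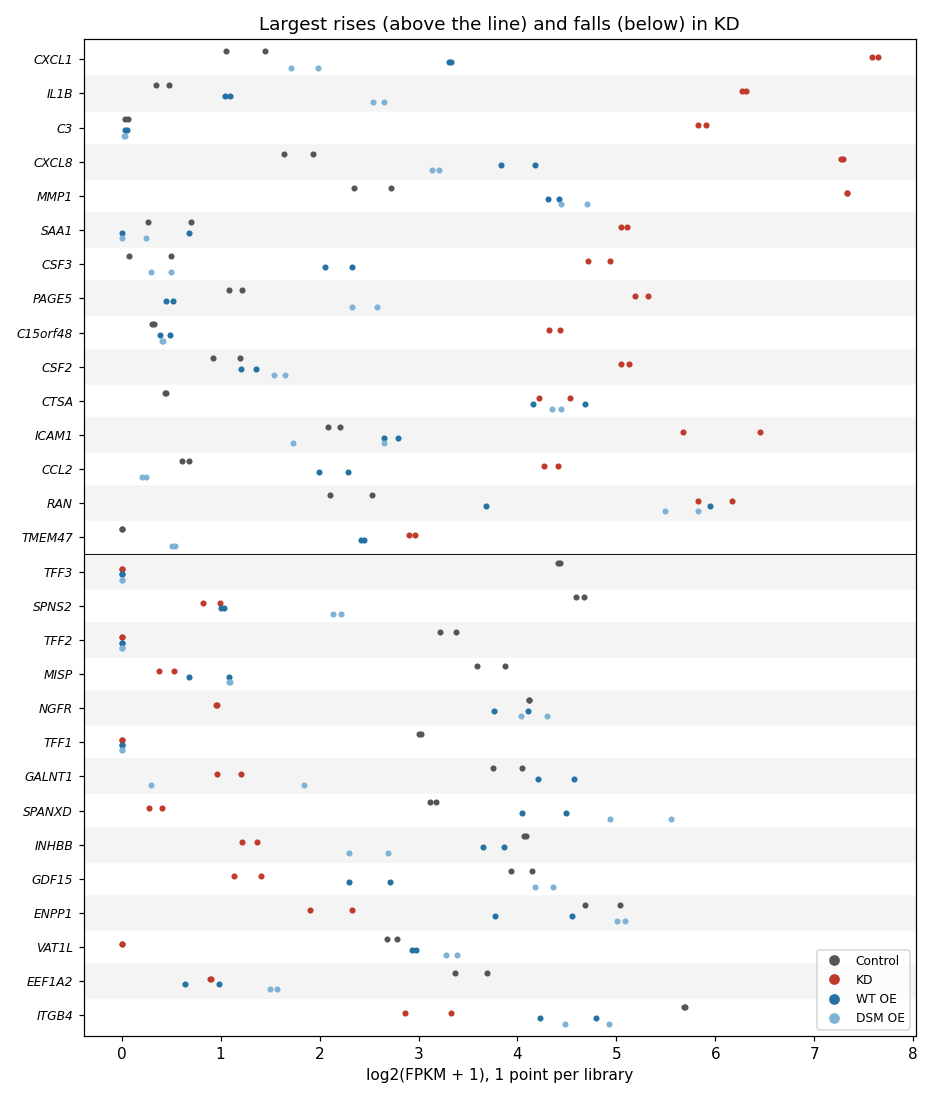
Levels in each of the 8 libraries, 1 point per library and 1 colour per line (horizontal axis, log2 of FPKM + 1), of the 15 genes that rose most in KD (above the line) and 14 of the 15 that fell most (below it). KD stands apart from the other 3 lines in *C3*, *SAA1* and *NGFR*, while control stands apart from the other 3 in *CTSA*, *TFF1*, *TFF2* and *TFF3*.

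Across 38 gene lists, the shares of called members differed from one group of genes to the next. Chemokines (5 of 6 tested higher), NF-kB subunits and targets (10 of 20 higher), cholesterol synthesis (13 of 21 lower) and epithelial markers (9 of 19 lower) had shares far above 3.51% and 3.69%. The filter counts all 8 libraries, so a gene silent in control or KD was tested only if another line held it. *CXCL2*, *CXCL3* and *CCL2* were under 1 in both control libraries, and the trefoil factors were detected in control alone. These shares thus depend on the filter. The lists were also chosen with earlier results of these data known, so the shares are descriptive. With no filter the counts of the same 4 lists were 6 of 15, 11 of 22, 10 of 21 and 11 of 30. ER chaperones had no called member, with 1 higher and 1 lower at an unadjusted p under 0.05. Cytosolic ribosomal proteins had 2 higher and 1 lower among 79, with 4 higher when control replicate 1 was removed and 1 when either KD library was.

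**Figure D3:**
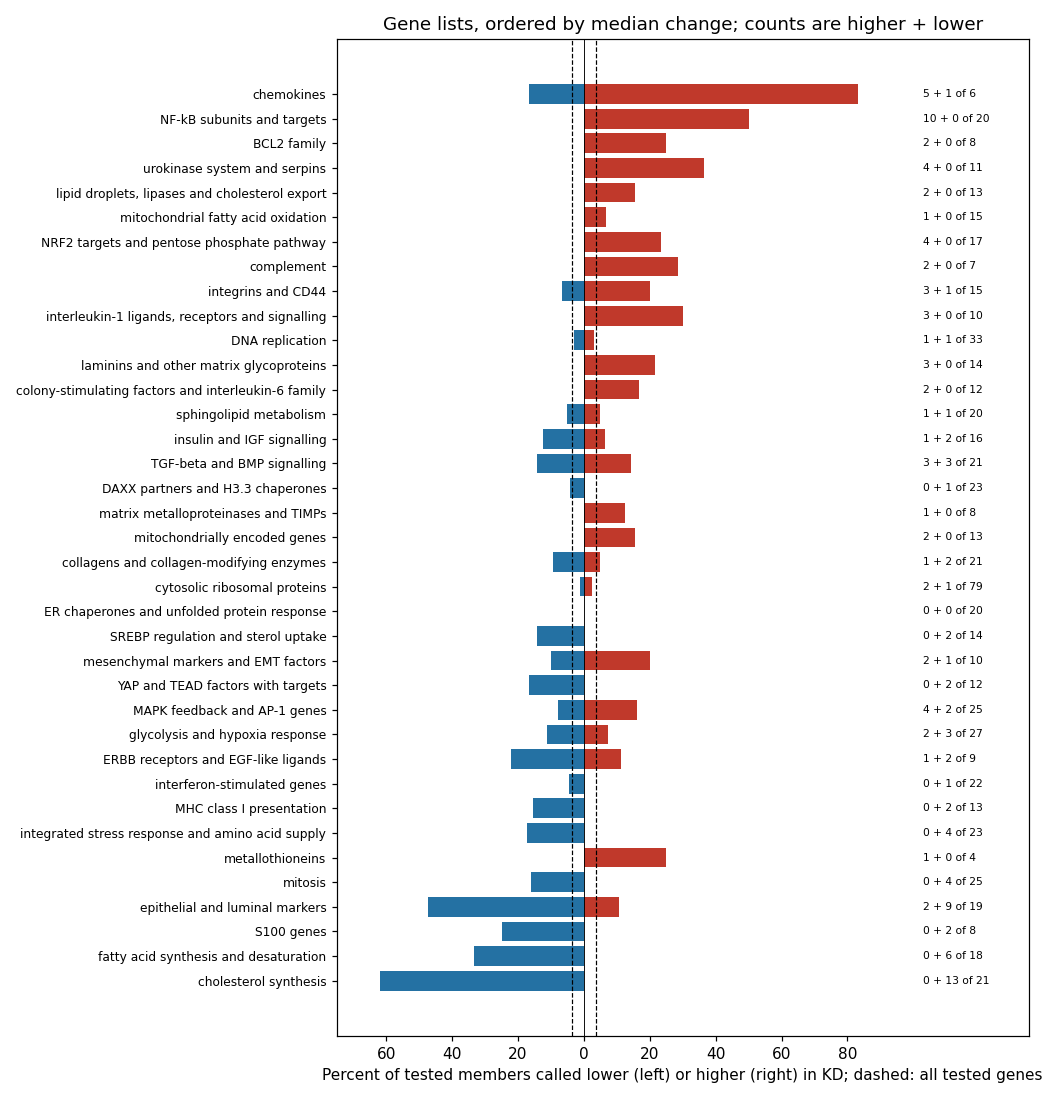
Percent of the tested members of 37 of the 38 gene lists that were called lower (left) or higher (right) in KD than in control, ordered by the median change of the list, with the counts at the right and dashed lines at the shares over all tested genes (3.69% and 3.51%). Cholesterol synthesis lies at the bottom with 13 of 21 lower, and chemokines and NF-kB genes lie at the top.

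The chemokines that rose lie mostly in 1 cluster. *CXCL8*, *CXCL1*, *CXCL3* and *CXCL2* lie on chromosome 4 of GRCh38.p14 between 73740569 and 74099195 and encode ligands of the receptors CXCR1 and CXCR2. Their promoters hold a form of the NF-kB consensus sequence, as do those of *ICAM1* and *NFKBIZ*, and 70 bases upstream of the start site of each gene (RefSeq, GRCh38.p14, 5′ to 3′ on the strand of the gene) are shown because these are the genes of the inflammatory groups in which the sequence GGAANTTCC, which reads the same on both strands, was found. The match is in capitals.
CXCL1 (chr4:73869273-73869342, + strand): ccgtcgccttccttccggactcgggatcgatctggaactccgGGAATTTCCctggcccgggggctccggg
CXCL2 (chr4:74099246-74099315, - strand): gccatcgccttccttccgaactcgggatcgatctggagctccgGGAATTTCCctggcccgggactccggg
CXCL3 (chr4:74038740-74038809, - strand): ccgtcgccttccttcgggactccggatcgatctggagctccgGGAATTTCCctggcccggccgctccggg
CXCL8 (chr4:73740449-73740518, + strand): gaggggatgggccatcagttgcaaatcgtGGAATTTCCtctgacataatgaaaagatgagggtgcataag
ICAM1 (chr19:10270900-10270969, + strand): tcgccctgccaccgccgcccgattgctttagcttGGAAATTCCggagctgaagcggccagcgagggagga
NFKBIZ (chr3:101827740-101827809, + strand): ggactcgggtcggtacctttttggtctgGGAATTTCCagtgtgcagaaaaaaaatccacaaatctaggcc

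In *CXCL1*, *CXCL2* and *CXCL3* the match begins 78, 77 and 78 bases before the start site, and in *CXCL8* it begins 91 bases before it. It begins 186 bases before the start of *ICAM1* and 222 before that of *NFKBIZ*. Among the 20 called-higher genes of the chemokine, interleukin-1, colony-stimulating factor and NF-kB lists, 16 have an entry in the RefSeq promoter table (250 bases before to 50 after the start), and 6 of these 16 hold the sequence. Of all 35116 promoters listed there, 0.965% hold it, of the tested genes with an entry 1.34%, and of the called-higher genes with an entry 7 of 261. The lists name targets of NF-kB, and *CXCL1*, *CXCL2* and *CXCL3* are close copies. The 6 matches are therefore not independent of each other or of how the genes were chosen. The letters were chosen among several forms of the site after matches had been seen. The AP-1 sequence TGANTCA, also palindromic, was found in 2 of the 16, *CXCL8* and *IL1A*. It was found in 7.71% of all promoters and in 6.62% of tested genes with an entry. A match describes the letters only and says nothing of binding in these cells.

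All 4 genes of the cluster rose by over 2 on the log2 scale, each with KD libraries far above the other 6. *CXCL8*, the interleukin-8 gene, went from an FPKM of 2.81 and 2.117 in control to 156 and 154 in KD (a change of 5.50 on the log2 scale, standard error 0.16, adjusted p = 8.46e-05). The change of *CXCL1* was 6.36 (standard error 0.17, adjusted p = 6.18e-05), a 139-fold ratio of mean FPKM. *CXCL2* went from 0.0998 and 0.0989 to 5.83 and 7.08, and *CXCL3* from 0.0258 and 0.0610 to 4.78 and 4.38. *CXCL1*, *CXCL2* and *CXCL3* are close copies, so the split of reads among them is uncertain. Other genes of the cluster were hardly detected, with *CXCL6* listed at 0 in control and KD and *CXCL5* at 0.0714 in KD replicate 1 and 0 in the other 3.

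Both overexpression lines also held some *CXCL8* and *CXCL1*. *CXCL8* had means of 15.1 (WT OE) and 8.03 (DSM OE), and *CXCL1* of 8.99 and 2.61. KD was above the mean of these lines by 3.70 and 5.03 on the log2 scale (adjusted p = 1.88e-04 and 9.79e-05). *CCL2*, the monocyte chemokine gene on chromosome 17, went from 0.608 and 0.522 in control to 18.3 and 20.3 in KD (3.69, adjusted p = 1.58e-04). *CCL26*, an eotaxin gene, was the 1 chemokine that fell, from 1.74 and 1.23 to 0.257 and 0.263, and its call was lost without any 1 control or KD library (-1.12 to -0.82). The 5 rises were called with each of the 8 libraries left out. The other 11 of the 17 chemokine genes listed, *CXCL10* and *CCL5* among them, did not reach the level for testing.

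Interleukin-1 ligands rose as well. *IL1B* went from 0.395 and 0.276 in control to 75.9 and 78.3 in KD (5.87, standard error 0.11, adjusted p = 1.70e-05). *IL1A*, its neighbour on chromosome 2, was listed at 0 in both control libraries and at 5.20 and 5.61 in KD. DSM OE stood between them for both, at means of 5.06 and 1.63. *IRAK2*, a kinase of the interleukin-1 receptor complex, went from 6.21 and 5.85 to 23.9 and 23.7 (1.82, adjusted p = 3.87e-04). Other genes of that complex did not pass. *IRAK1*, *MYD88* and *TAB2* stood at -0.09, 0.10 and 0.04, and the receptor *IL1R1* was below the level for testing. Of 10 tested members of the list, 3 rose.

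Among colony-stimulating factors and the interleukin-6 family, 2 of 12 tested genes rose, and both are ligands of myeloid cells. *CSF2*, the GM-CSF gene, went from 0.895 and 1.29 to 32.1 and 34.0 (4.03, standard error 0.14, adjusted p = 1.09e-04). *CSF3*, the G-CSF gene, went from 0.0508 and 0.411 to 29.5 and 25.3 (4.54, standard error 0.20, adjusted p = 2.78e-04). *IL6* did not pass, with 0.178 and 0.340 in the control libraries against 4.85 and 1.49 in the KD libraries (1.60, adjusted p = 0.0653). *IL11*, the family member with the highest level in these cells, had means of 41.5 in control and 40.7 in KD (-0.04, adjusted p = 0.914). *SOCS3*, a feedback inhibitor of this family, stood at -0.22 (adjusted p = 0.442).

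NF-kB genes that rose include subunits and feedback inhibitors. Of 20 tested members 10 rose and limma called none lower, with a median change of 0.99 against 0.03 over all genes. Among subunits, *RELB* went from 2.69 and 2.97 to 17.6 and 15.8 (2.2, standard error 0.14, adjusted p = 0.00109) and *NFKB2* from 17.1 and 17.8 to 35.3 and 35.2 (0.97, adjusted p = 0.00582). These encode the partners of the non-canonical complex. *NFKB1* stood at 0.88 (adjusted p = 0.0672) and *RELA*, the canonical subunit gene, at -0.20 (adjusted p = 0.80). Among feedback genes, *TNFAIP3*, which encodes the inhibitor A20, went from 0.424 and 0.565 to 11.5 and 6.09, and *BIRC3*, which encodes a ubiquitin ligase of the pathway, from 1.01 and 0.844 to 6.34 and 8.51. *TNIP1* went from 13.1 and 19.0 to 50.9 and 56.5, and *NFKBIZ* from 2.43 and 1.58 to 7.65 and 8.20. *NFKBIA*, the IkB-alpha gene, did not pass, with 19.0 and 20.1 in the control libraries against 41.3 and 39.1 in the KD libraries (1.0, adjusted p = 0.067).

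*PTX3*, the pentraxin 3 gene, was high in both shRNA lines and low in both overexpression lines. It rose from 30.5 and 29.3 to 76.1 and 76.8, beside overexpression means of 7.58 (WT OE) and 9.70 (DSM OE). *PTGS2*, the cyclooxygenase-2 gene, went from 0.136 and 0.703 to 3.20 and 3.45, and *PTGES*, whose product acts after it, had means of 38.8 and 120 and did not pass (2.63, standard error 1.13). The call of *TNIP1* was lost without control replicate 1 or either KD library (1.45 to 1.96), that of *PTGS2* without either KD library (1.34 to 1.93) and that of *NFKBIE* when any control, KD or DSM OE library was removed (0.58 to 0.67). The list's count was 7 when either KD library was removed, 9 when a control or DSM OE library was, and 11 when a WT OE library was. In a fit of KD and control alone it was 6.

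**Figure D4:**
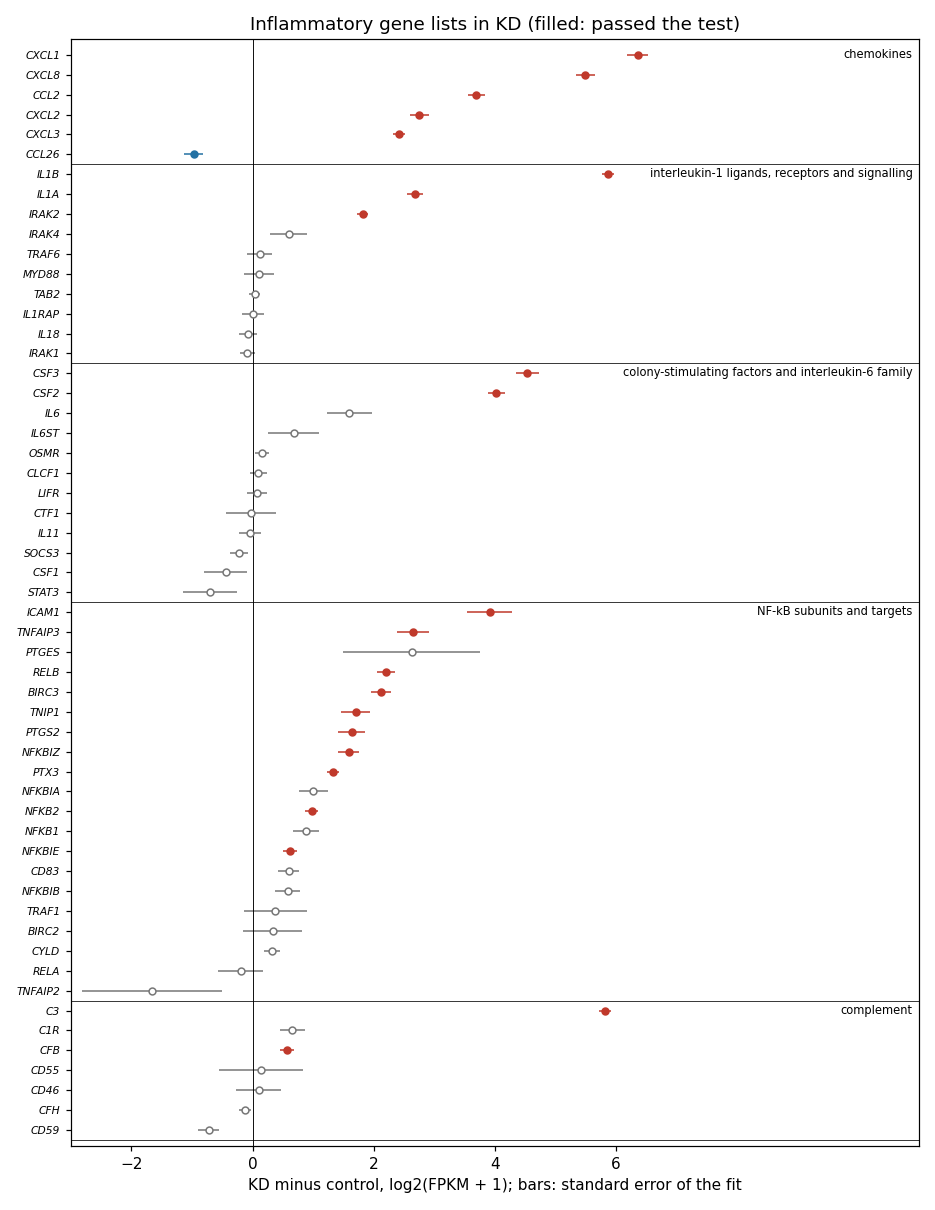
Change from control to KD (horizontal axis, log2 of FPKM + 1, bars are the standard error of the fit) of all tested members of 5 inflammatory gene lists, filled where the gene passed the test. Ligands such as *CXCL1* (6.36), *IL1B* (5.87) and *CSF3* (4.54) lie far to the right, while *MYD88* (0.10) and *RELA* (-0.20) lie near 0.

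Among 7 tested complement genes *C3* and *CFB* rose. *CFB*, the factor B gene, went from 1.66 and 1.81 to 3.22 and 2.91 (0.57, adjusted p = 0.0411), a call lost with any 1 of the 8 libraries left out (0.51 to 0.63). The regulators *CD59*, *CD46* and *CD55* did not pass, at -0.72, 0.11 and 0.13. Outside the lists, *CEBPD*, a transcription factor gene of the acute-phase response, went from 2.50 and 3.90 to 25.1 and 23.4, and *IKBKE*, an NF-kB kinase gene, from 4.70 and 4.52 to 18.2 and 16.8. The *IKBKE* call was lost without either control or KD library.

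Of 22 tested interferon-stimulated genes limma called none higher and *IFIT2* lower, from 11.8 and 10.5 to 6.74 and 7.55, a call lost with any 1 library left out (-0.66 to -0.49). The list's median was -0.24, and 18 of the 22 were below 0. Among all tested genes the median was 0.03, and 3.69% were called lower. *ISG15*, *BST2* and *IFIT3* stood at -0.13, -0.22 and -0.46 without passing. In MHC class I presentation 2 of 13 fell. *TAP1*, the peptide transporter gene, went from 10.4 and 12.8 to 5.84 and 5.32 (-0.93, adjusted p = 0.0154), and *PSMB8*, an immunoproteasome subunit gene, from 26.4 and 25.8 to 17.4 and 17.4 (-0.56, adjusted p = 0.0203). Without either KD library limma called neither, and without either control library 1 of the 13 was called lower. *HLA-E* and *B2M* stood at -0.36 and -0.16.

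Proteases and their inhibitors rose at few genes but by much. *MMP1*, the interstitial collagenase gene, went from an FPKM of 5.59 and 4.11 in control to 160 and 159 in KD (4.79, standard error 0.16, adjusted p = 9.92e-05), beside means of 19.6 and 22.9 in the overexpression lines. It was the 1 called member of 8 tested metalloproteinase and TIMP genes. *MMP14*, the membrane-type collagenase gene, was at means of 189 and 263 and did not pass (0.47, adjusted p = 0.0669), and *TIMP1*, *TIMP2* and *TIMP3* stood at 0.15, -0.11 and -0.29. *SERPINB2*, a plasminogen activator inhibitor gene, was listed at 0 in both control libraries and at 3.06 and 2.72 in KD. The plasminogen activators did not pass, with *PLAU*, the urokinase gene, at means of 154 and 127 and *PLAT* at 113 and 102. *TFPI2*, a further protease inhibitor gene outside the lists, went from 15.2 and 14 to 39.6 and 39.1. Of 11 tested members of the urokinase and serpin list 4 rose, and 2 without control replicate 2, either KD library or any overexpression library.

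Of 14 tested laminins and other matrix glycoproteins 3 rose, and the count was 1 without any 1 control or KD library and 2 without any 1 overexpression library. *LAMB3*, a laminin chain gene, went from 81.5 and 91.5 to 129 and 131 (0.58, adjusted p = 0.0231), below its means of 172 and 278 in the overexpression lines, and its call was lost without any 1 control or KD library (0.50 to 0.67). *ITGB4*, which pairs with *ITGA6* as a laminin receptor, fell from 50.4 and 50.8 to 9.06 and 6.29 (-2.59, standard error 0.26, adjusted p = 0.00548), while *ITGA6* stood at -0.10 (adjusted p = 0.775). *ITGAV*, a subunit of vitronectin receptors, rose from 13 and 12.4 to 24 and 25.0 (0.89, adjusted p = 0.00494). *ITGA5* and *ITGA1* were called at 0.86 and 0.83, and both calls were lost without any 1 control or KD library.

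Collagens changed little as a group, with 1 of 21 tested genes higher, 2 lower and a median of 0.01. *COL6A1* went from 26.8 and 28.6 to 11.8 and 10.6 (-1.24, adjusted p = 0.00245), and its partner chain *COL6A2* from 2.11 and 2.29 to 0.663 and 0.147, a call lost without either control library (-1.48 to -0.94). *COL8A1* was called higher at 1.84, but its control libraries stood at 5.04 and 10.8 and the call was lost with any 1 library left out (1.36 to 2.32). *LOXL2*, a collagen crosslinking enzyme gene, was at means of 53.6 and 95.3 and did not pass (0.81, adjusted p = 0.0542). *FN1* and *THBS1* stood at 0.37 and -0.25 without passing.

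Of 19 tested epithelial genes 9 were lower in KD and 2 higher, with a median of -0.65. Against the mean of the overexpression lines 5 were called lower and 2 higher, beside 9.26% and 9.08% of all tested genes. The list was chosen with earlier results of these data known and holds *MISP*, itself among the largest falls, so its share is descriptive. Beside the trefoil factors, *MISP*, which encodes an actin-binding protein that positions the spindle, went from 11.1 and 13.7 to 0.295 and 0.442 (-3.28, standard error 0.18, adjusted p = 5.46e-04). *KRT80* went from 63.9 and 71.5 to 34.5 and 33.1 (-0.98, adjusted p = 0.00607) and *KRT19* from 210 and 226 to 95.2 and 81.8 (-1.29, adjusted p = 0.0116), a call lost without either control library or KD replicate 2 (-1.40 to -1.18). The other keratins at high level, *KRT18*, *KRT7* and *KRT8*, did not pass, at -0.31, -0.30 and -0.38. *TFF1*, *TFF2* and *TFF3* make up 3 of the 9 falls and were listed at 0 in every line but control.

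Tight junction genes changed in both directions. *CLDN1* went from 0.00312 and 0.322 to 4.59 and 4.51 (2.27, adjusted p = 0.00132), *CLDN7* from 3.28 and 6.15 to 20.9 and 14.1, and *CLDN4* from 31.8 and 34.0 to 19.6 and 18.4. *OCLN*, the occludin gene, went from 2.40 and 1.97 to 0.650 and 0.676. The *CLDN7* call was lost without control replicate 1 or any KD or overexpression library (1.35 to 2.09), that of *CLDN4* without control replicate 2 or either KD library (-0.81 to -0.72) and that of *OCLN* without either KD library (-1.03 to -0.84). *CDH1*, the E-cadherin gene, was at 0.00360 or less in control and KD and was not tested. Over the list, lower calls numbered 5 without KD replicate 2 and 6 without control replicate 2 or KD replicate 1. *SPDEF*, an epithelial transcription factor gene outside the list, went from 55.8 and 64.4 to 18.4 and 17.2, and *PODXL*, the podocalyxin gene, from 89.1 and 89.8 to 23.8 and 23.3. *EHF*, another epithelial factor gene, moved the other way, from 1.25 and 1.85 to 14.5 and 16.6, a call lost without either control or KD library (2.54 to 2.88).

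Mesenchymal genes showed no shared direction. *SNAI2*, the Slug gene, went from 5.89 and 5.68 to 13.9 and 13.5 (1.12, standard error 0.10, adjusted p = 0.00323). *CDH11* was called higher (0.64) and *CAVIN1* lower (-0.58), and both calls were lost without any 1 control or KD library. *ZEB1* and *AXL* stood at -0.05 and -0.30 without passing. S100 genes, which encode small calcium-binding proteins, stood lower in 7 of 8 tested members, and 2 passed. The median change was -0.65 in this list and 0.03 over all tested genes. *S100A4*, known for its role in metastasis, went from 408 and 399 to 117 and 133 (-1.68, standard error 0.14, adjusted p = 0.00299), and *S100A10* from 254 and 231 to 153 and 159, a call lost without any 1 control, KD or WT OE library (-0.70 to -0.56). *S100A6*, the member with the highest level, stood at -0.73 (adjusted p = 0.0662).

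Among 9 tested ERBB receptors and EGF-like ligands 3 ligands changed. *AREG*, the amphiregulin gene, went from 8.42 and 8.66 to 2.67 and 2.59 (-1.39, standard error 0.12, adjusted p = 0.00308), and *TGFA* from 7.70 and 7.54 to 2.73 and 4.05 (-0.99, adjusted p = 0.0312). *EREG*, the epiregulin gene, rose from 0.984 and 1.17 to 2.54 and 2.47 (0.76, adjusted p = 0.041). The *EREG* call was lost without any 1 control, KD or WT OE library (0.69 to 0.82), and that of *TGFA* without any 1 library but KD replicate 2 (-1.21 to -0.77). The receptor genes *EGFR* and *ERBB2* did not pass, at 0.39 and -0.21. *IGFBP4*, which binds insulin-like growth factors, went from 2092 and 2256 to 655 and 608 (-1.78, standard error 0.09, adjusted p = 4.76e-04). Of 16 tested genes of insulin and IGF signalling 2 fell and 1 rose. Leaving out any 1 of the 8 libraries ended the call of the rise, and 1 gene was called lower without any 1 control, KD or WT OE library. Outside these lists *PGF*, the placental growth factor gene, went from 5.18 and 4.99 to 1.20 and 1.15. *INHBB*, an activin subunit gene, fell from 15.9 and 15.8 to 1.57 and 1.32 (-2.79, standard error 0.16, adjusted p = 7.87e-04), while the other subunit gene, *INHBA*, rose from 0.793 and 0.520 to 2.70 and 2.91 (1.20, adjusted p = 0.00542).

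In the wider TGF-beta and BMP list, 3 of 21 tested genes rose and 3 fell, with a median of 0.03. Lower calls numbered 1 when either control library, KD replicate 2 or either DSM OE library was removed. *BMP2* rose from 2.42 and 2.15 to 11.1 and 10.3 (1.83, adjusted p = 0.00194), and *TGFBR2*, the type II receptor gene, from 62.9 and 61.2 to 104 and 108 (0.76, adjusted p = 0.00569). Its overexpression means were 94.0 and 125, so control was the low line for *TGFBR2*. *BMP4* and the BMP target *ID1* were called lower at -0.78 and -0.81, and both calls were lost without any 1 control, KD or DSM OE library, as *BMP4* also was without a WT OE library. Among targets of YAP, *ANKRD1* went from 109 and 98.7 to 44.3 and 43.5 (-1.22, adjusted p = 0.00323), beside overexpression means of 55.8 and 38.3, and *CCN1* stood at 0.20 without passing. *CCN2*, the CTGF gene, was called at -0.42 (adjusted p = 0.0399), a call lost with any 1 library left out.

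MAPK feedback and AP-1 genes gave 4 rises and 2 falls among 25. *DUSP10*, a phosphatase gene for p38 and JNK, went from 3.56 and 3.48 to 10.4 and 11 (1.37, adjusted p = 0.00795), and *SPRY4*, a feedback inhibitor gene, from 16.9 and 18.1 to 8.68 and 8.66 (-0.94, adjusted p = 0.0104). *MYC* went from 27.4 and 32.1 to 54.8 and 51.7 (0.82, adjusted p = 0.0318), and the AP-1 genes *FOSL1* and *JUNB* were called at 0.58 and 0.63. The calls of *MYC*, *FOSL1* and *JUNB* were lost without any 1 control or KD library, with fold changes that stayed between 0.50 and 0.93. *JUN* and *JUND* did not pass, at -0.17 and 0.63. The *DUSP10* call was lost without control replicate 2 or KD replicate 2, and that of *SPRY4* without control replicate 2 or either KD library. Over the list, limma called none of the 25 without control replicate 2, 1 without either KD library, and 2 when control replicate 1 or a DSM OE library was removed.

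Of 33 tested replication genes 1 rose and 1 fell, with a median of 0.10. *PCNA* was at means of 105 and 111. *MCM10* went from 4.14 and 4.55 to 9.05 and 8.38 (0.86, adjusted p = 0.0151) and *MCM3* from 47 and 60.6 to 34.6 and 31.2 (-0.68, adjusted p = 0.0453). Of 25 mitotic genes 4 fell and limma called none higher, and 22 were below 0, with a median of -0.43. Over all tested genes 3.69% were called lower and the median was 0.03. *TOP2A*, the topoisomerase II alpha gene, went from 64.4 and 59.9 to 26.5 and 30.8 (-1.09, standard error 0.13, adjusted p = 0.00913). *CENPA*, the centromeric histone gene, went from 5.33 and 6.49 to 2.88 and 2.28 (-0.95, adjusted p = 0.0194). *CDC20*, *UBE2C* and *CCNB1* stood at -0.21, -0.43 and -0.37 without passing. Without control replicate 1 or KD replicate 1 limma called no mitotic gene, and without control replicate 2 or KD replicate 2 it called 1. The *TOP2A* call was lost without control replicate 1 or KD replicate 1 (-1.20 to -0.99), those of *CENPA* and *MCM10* without any 1 control or KD library, and that of *MCM3* without any 1 library but control replicate 1 (-0.86 to -0.50).

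In the BCL2 family 2 of 8 rose. *MCL1*, an anti-apoptotic member, went from 82.0 and 75.5 to 128 and 128 (0.70, adjusted p = 0.00902), beside overexpression means of 98.8 and 151. *BCL2A1*, a target of NF-kB, was listed at 0 in both control libraries and at 3.27 and 3.03 in KD. Without control replicate 2 or KD replicate 1 both calls were lost, and that of *MCL1* also without KD replicate 2. *BCL2L1* was at means of 90.9 and 12.1 and did not pass (-2.46, adjusted p = 0.169).

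Genes of cholesterol synthesis fell, from *HMGCS1* near the start of the pathway to *DHCR7* near its end. In this pathway acetyl-CoA is joined into mevalonate, isoprenoids and squalene, and squalene is closed into lanosterol and trimmed to cholesterol. Its genes are induced together by SREBP2, encoded by *SREBF2*, when sterols are scarce. All but 1 of the 21 members stood below 0 in KD, and 13 passed. In a fit of KD and control alone 3 passed, and with a replicate block 7 did. Against the mean of the overexpression lines 11 were called lower, beside 9.26% of all tested genes. *IDI1*, which isomerises isopentenyl diphosphate, went from 27.0 and 22.3 to 10.2 and 10.3, and *FDFT1*, the squalene synthase gene, from 12.8 and 15.8 to 6.20 and 7.05. *MSMO1*, a sterol demethylase gene, had the largest called change of the pathway, from 48.7 and 47.1 to 15.4 and 15 (-1.59, standard error 0.29, adjusted p = 0.0317). *PMVK* did not pass and stood at 0.10. With a KD library left out, *MSMO1*, *IDI1* and *FDFT1* were no longer called. *MSMO1* also lost its call without any 1 control or WT OE library, *IDI1* without control replicate 1 and *FDFT1* without control replicate 2. In place of 13 lower calls in the pathway there were 3 and 4 when control replicate 1 or 2 was removed, 4 and 2 when KD replicate 1 or 2 was removed, and 7 when either WT OE library was.

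**Figure D5:**
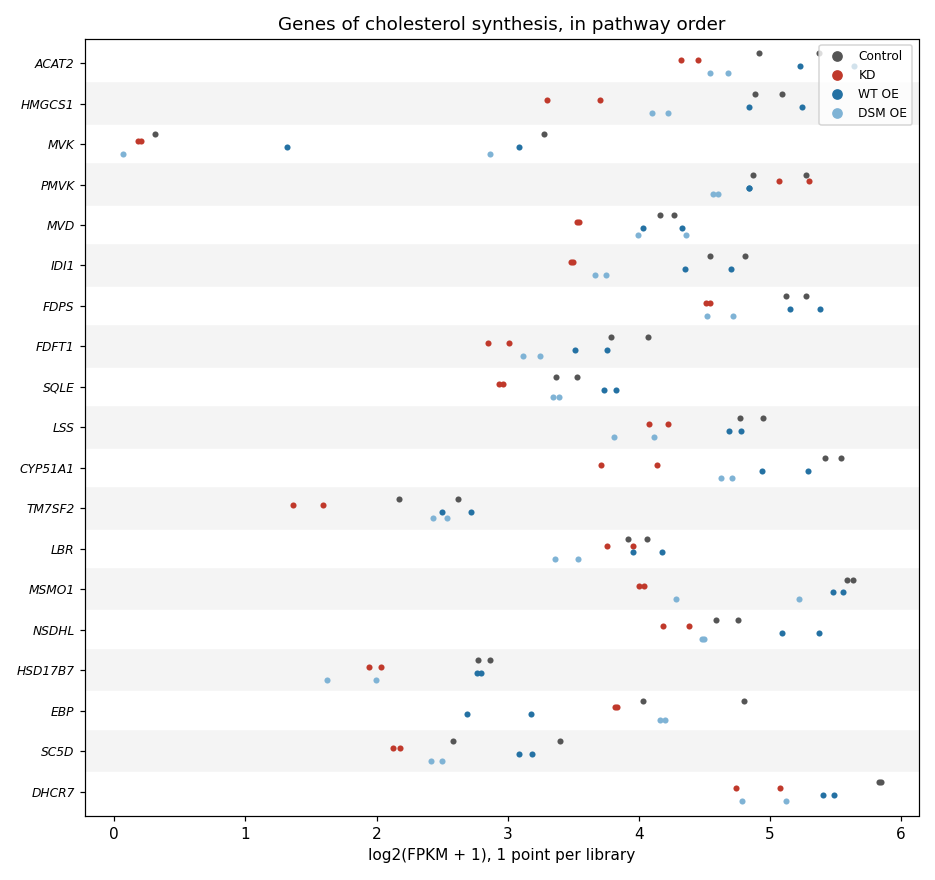
Levels of 19 of the 21 genes of cholesterol synthesis in each of the 8 libraries, in pathway order from top to bottom (horizontal axis, log2 of FPKM + 1, 1 point per library and 1 colour per line). Both KD libraries lie below both control libraries in *HMGCS1*, *IDI1* and *MSMO1*, while the control libraries of *MVK*, at 8.68 and 0.237 FPKM, lie far from each other.

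The SREBP genes did not pass. *SREBF2* had 21.2 and 34.6 in the control libraries against 24 and 23.7 in the KD libraries (-0.18, adjusted p = 0.739), and its difference was -0.52 without control replicate 1 and 0.16 without control replicate 2. *SREBF1* had 18.5 and 22.9 against 29.6 and 26.6 (0.43, adjusted p = 0.17). Of 14 tested genes of SREBP regulation and sterol uptake 2 fell, and 1 without any 1 control, KD or DSM OE library. *INSIG1*, a sterol feedback gene, did not pass, at means of 55.6 and 42.2. The sequence TCACNCCA, or its reverse complement, was found in 1 of 9 promoters of the called cholesterol genes with an entry, that of *MSMO1*. It was found in 3.95% of all promoters and in 4.51% of tested genes with an entry.

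In fatty acid synthesis 6 of 18 fell, with a median of -0.66. *ACSS2*, a cytosolic acetyl-CoA synthetase gene, went from 20.5 and 17.7 to 7.41 and 7.76 and was also below its overexpression means of 26.2 and 20.2 (-1.48, adjusted p = 7.12e-04). *ELOVL5* and *FADS1* did not pass that comparison. *ELOVL5* went from 28.7 and 25.9 to 16.3 and 17.4, beside overexpression means of 17.7 and 18.4, and its call was lost without any 1 control or KD library (-0.73 to -0.59). *SLC25A1*, the mitochondrial citrate carrier gene, passed both comparisons, at -0.94 from control and -0.37 from the overexpression lines. For *FADS2* the KD mean was 24.8 and the control mean 70.8, and it did not pass (-1.59, adjusted p = 0.0695). The count was 2 without either control library and 3 without KD replicate 1. Of 20 tested genes of sphingolipid metabolism 1 rose and 1 fell, the former call lost without any 1 control or KD library, and of 13 tested genes of lipid droplets, lipases and cholesterol export 2 rose. *G0S2*, an inhibitor of triglyceride lipase, rose from 26.7 and 27.2 to 83.4 and 77.8 (1.54, standard error 0.13, adjusted p = 0.00261), beside overexpression means of 86.1 and 153. *ABCA1*, which exports cholesterol, rose from 0.332 and 0.792 to 2.86 and 2.22 (1.19, adjusted p = 0.0339), a call lost without any 1 control, KD or WT OE library (0.98 to 1.40). Fatty acid oxidation had 1 called member of 15, *ACADVL* at 0.70, lost without any 1 control or KD library.

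In the integrated stress response 4 of 23 fell and limma called none higher. *GDF15*, a stress cytokine gene, went from 14.3 and 16.7 to 1.65 and 1.20 (-2.77, standard error 0.19, adjusted p = 0.00132). *CHAC1*, a glutathione-degrading enzyme gene, went from 9.52 and 13.1 to 3.84 and 3.55 (-1.38, adjusted p = 0.0192), and *SLC7A11*, the cystine transporter gene, from 6.73 and 6.29 to 2.48 and 3.29 (-0.96, adjusted p = 0.0205). DSM OE means of *GDF15*, *CHAC1* and *SLC7A11* were 18.3, 24.7 and 17.7, above those of control. Against the mean of the overexpression lines 16 of the 23 were called lower in KD, where 9.26% of all tested genes were. The median was -0.98 in that comparison, beside -0.29 against control. *ATF4*, the factor that drives the response, stood at -0.06 from control. The *CHAC1* call was lost without control replicate 2 or either KD library (-1.59 to -1.16) and that of *SLC7A11* without either control library or KD replicate 1 (-1.11 to -0.81). The count was 1 without control replicate 2 or KD replicate 1 and 2 without the other control or KD library.

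Of 17 tested NRF2 targets and pentose phosphate genes 4 rose. *AKR1B1*, the aldose reductase gene, went from 56.7 and 65.8 to 214 and 224 (1.83, standard error 0.10, adjusted p = 6.05e-04). *FTH1*, the ferritin heavy chain gene, went from 203 and 207 to 374 and 397 (0.90, adjusted p = 0.0225), beside overexpression means of 124 and 118. *FTL*, the light chain gene, was called at 0.40 (adjusted p = 0.0399) and *TXNRD1*, a thioredoxin reductase gene, at 0.73 (adjusted p = 0.0451). With any 1 control or KD library left out, *AKR1B1* was the 1 of these 4 still called. Outside the list *TXNIP*, the thioredoxin inhibitor gene, fell from 29.3 and 24.5 to 7.33 and 7.48, and *GPX3* and *SOD3*, which encode secreted antioxidant enzymes, went from 26.1 and 26.7 to 9.81 and 10.6 and from 15.4 and 17.7 to 6.93 and 6.09, the latter call lost without any 1 control, KD or DSM OE library. Pentose phosphate genes did not pass, with *PGD* at -0.30 and *TALDO1* at 0.11. *MT2A*, a metallothionein gene, rose from 180 and 169 to 294 and 314, a call lost without control replicate 2 or either KD library (0.75 to 0.84), while *MT1E* and *MT1X* stood at -0.38 and -0.28.

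Of 27 tested genes of glycolysis and the hypoxia response 2 rose and 3 fell. With 1 library left out, 1 to 3 were called higher and 1 to 3 lower. *GAPDH*, *ENO1* and *PKM* stood at 0.17, -0.28 and -0.29 without passing. *ALDOC*, an aldolase isoform gene, went from 3.08 and 3.92 to 0.0239 and 0 in KD. Its overexpression means were 0.0301 and 0, so control was the line apart. *NDRG1*, a gene of the hypoxia response, went from 38.8 and 36.3 to 16 and 14.5, a call lost without any 1 control, KD or WT OE library (-1.31 to -1.18), and *SLC2A3*, a glucose transporter gene, from 8.03 and 7.51 to 3.77 and 3.61, a call lost without any 1 control or KD library. *UCP2*, a mitochondrial carrier gene outside the lists, went from 15.3 and 15.5 to 3.16 and 3.90. *CA12*, a carbonic anhydrase gene, rose from 0.468 and 0.587 to 2.46 and 2.89.

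Of 23 tested DAXX partners and H3.3 chaperones *UBN1*, a subunit of the HIRA complex, was called lower, from 12.1 and 13.2 to 7.03 and 8.68, and the call was lost with any 1 library left out (-0.77 to -0.50). Over all tested genes, 3.69% were called lower. *H3-3B*, one of the H3.3 genes, was at means of 56.5 and 60.2, and *HDAC1* and *DNMT1* stood at 0.03 and 0.07. Of the 13 mitochondrially encoded genes 2 were called higher, *MT-CO3* from 97.1 and 101 to 169 and 172 and *MT-ND5* from 177 and 171 to 221 and 225, and both calls were lost without any 1 control or KD library. *RPS20*, a ribosomal protein gene, went from 52.9 and 49.95 to 90.7 and 87.2 (0.78, adjusted p = 0.0058) while the median of the 79 ribosomal protein genes was -0.01.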

How the data were processed

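RNA from 8 cultures of 4 MDA-MB-231-derived lines was measured, 2 libraries per line; the design text has duplicates and the sample notes triplicates. DSM OE titles hold WT as well, so the genotype label set their group. The deposited values are FPKM, 1 per gene and library. According to the methods and the submitters' notes, the authors aligned reads of polyadenylated RNA with HISAT2 to GRCh38 (the notes also name hg19), assembled and quantified transcripts with StringTie and took FPKM with Ballgown. The sources used here do not give how transcripts were combined into 1 gene value. The methods state a nominal sequencing depth; mapped reads per library were not used here, so realised depth is unknown and no counting interval is given.

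The filter (FPKM of 1 or more in 2 or more of 8 libraries) kept 10465 genes, 10414 with a symbol. The scale was log2(FPKM + 1), with a pseudocount of 1 and no further scaling. Line means were fitted in R 4.3.3 by limma 3.58.1 (linear model, contrasts and empirical Bayes with a trend; 4 residual degrees of freedom), and two-sided p-values were adjusted over all genes by the Benjamini-Hochberg method. With 2 libraries against 2 an exact permutation test cannot reach 0.05, so it was left out. A value listed at 0 can be a failed estimate, so no fold is given against a line at 0. Symbols, positions and promoters were taken from RefSeq (GRCh38.p14).

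The comparison, gene lists and naming rule were chosen with earlier results of these data known. The rule took *DAXX*, *SREBF1* and *SREBF2*, the 15 largest non-overlapping changes each way whose higher line has a mean FPKM of 5 or more, genes listed at 0 in both libraries of control or KD, up to 8 called and 3 uncalled members of each of 38 lists, and the genes whose duplicates differ most. Other genes, whether list members or outside the lists, were named after their values were seen. Alternatives were a pseudocount of 0.1, no filter, a filter at a mean FPKM of 5, scaling to the median, quantile normalization, no variance trend, a robust fit, the compared lines alone, a replicate block and each library left out. Figures were drawn with matplotlib 3.10.9. Some genes and 1 gene list are not reported here, and figures leave them out; counts over lists include them.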

Additional observations from a re-analysis of the deposited data

How the results depend on the processing

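Counts of genes higher and lower in KD than in control (367 and 386) fell to 227 and 233 with a mean FPKM of at least 5 and to 131 and 137 with the compared lines alone, and ranged from 94 to 267 and from 104 to 274 with 1 library left out. Against the mean of WT OE and DSM OE (950 and 969) they were 624 and 550 with a mean FPKM of at least 5, and 266 to 806 and 297 to 772 with 1 library left out. The replicate block gave 180 higher and 191 lower against control, and 645 lower against the overexpression lines; the deviations of same-numbered control and KD libraries correlated at 0.04, so the numbers are not taken to pair the cultures. Median scaling gave 300 higher and 433 lower. *DAXX* kept its fold change of -1.83 but not its call without a filter (adjusted p = 0.0607) and in the compared lines alone (adjusted p = 0.0585), and ranged from -2.10 to -1.56 with 1 library left out. The fits with 1 control or KD library left out assume that the lone library varies like those of the other lines. No named gene reversed its direction under any alternative while called. With 2 libraries a line and no mapped read counts used here, changes of low genes and small changes are least certain.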
